A study of Mus musculus with 4 samples.

Results

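The miR-183, miR-96 and miR-182 cluster is a group of 3 neighbouring miRNA genes, and 4 of its mature miRNAs were analysed: mmu-miR-183-5p, mmu-miR-96-5p, mmu-miR-182-5p and mmu-miR-182-3p. The members were taken by name from the deposited tables, which list 668 miRNAs in all. All 4 were among the 373 miRNAs of the SI-Exos table (exosomes from small intestinal epithelium), and 3 were among the 611 miRNAs of the table for serum exosomes, which does not list miR-182-3p. Exosomes came from the small intestine or the serum of male C57BL/6J mice. Those of the intestine, which was everted and treated with EDTA, were collected by ultracentrifugation. Small RNA of the exosomes was sequenced in 4 libraries: 3m-SI-Exos and 3m-serum-exos from mice 3 months old, and 18m-SI-Exos and 18m-serum-exos from mice 18 months old. Each of these conditions had 1 library, so no difference has a replicate check, and neither the labels nor the methods say how many mice went into a library.

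The 3 genes of the cluster are transcribed together as a common precursor that is cut into separate hairpins, each of which can release a miRNA from its 5′ arm (5p) and one from its 3′ arm (3p). A miRNA represses mRNAs that pair with its seed, the bases near its 5′ end. The cluster is best known from sensory cells, such as photoreceptors and hair cells of the inner ear, where mutations in the miR-96 seed cause hearing loss, and its members are also made in epithelial and endocrine cells and are raised in many carcinomas. FOXO transcription factors are known targets of miR-96, miR-182 and miR-183.

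In GRCm38 the genes lie on the minus strand of chromosome 6 within 3820 bases, from 30165918 to 30169737. Mir183 (30169668 to 30169737) is the most upstream, Mir96 (30169446 to 30169551) begins 117 bases after it, and Mir182 (30165918 to 30165992) lies another 3454 bases downstream. No other annotated gene overlaps this stretch. The nearest annotated neighbours, both on the plus strand, are Rncr4, a long non-coding RNA gene 3156 bases away, and Nrf1, a protein-coding gene 12460 bases away. The mature sequences below, from RefSeq (GRCm38.p6), are the same as those in the deposited tables and are shown because members of the cluster differ in their seeds, given in capitals (bases 2 to 8 from the 5′ end).
miR-183-5p: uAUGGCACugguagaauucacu
miR-96-5p: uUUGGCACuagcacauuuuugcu
miR-182-5p: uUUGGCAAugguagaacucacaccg
miR-182-3p: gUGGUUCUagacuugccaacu

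The 5p members have similar but not identical seeds. The seed of miR-182-5p differs from that of miR-96-5p at 1 base (C8A, counted from the 5′ end of the mature miRNA), and the seed of miR-183-5p differs from it at 1 other base (U2A). Outside the seed, miR-182-5p differs from miR-183-5p at 2 of 15 compared positions and from miR-96-5p at 10 of 16. No other miRNA listed in either table shares bases 2 to 7 with a 5p member. miR-182-5p is 25 bases long, whereas the median length of the 563 known miRNAs with a listed sequence is 22 bases, and 6 of these are 25 bases or longer. Both arms of the Mir182 hairpin are members, and they are marked in capitals in the precursor.
Mir182 hairpin: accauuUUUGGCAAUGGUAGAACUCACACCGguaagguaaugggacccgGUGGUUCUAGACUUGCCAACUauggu

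The measurement was the number of reads that the authors counted for each mature miRNA. Counts were divided by the sum of all miRNA reads in the library and are given as counts per 1000000 (CPM). The sums were 212215 reads in 3m-SI-Exos, 71353 in 18m-SI-Exos, 832002 in 3m-serum-exos and 778237 in 18m-serum-exos, so that 1 read was 4.71, 14.01, 1.20 and 1.28 CPM in that order. Intervals in brackets are exact (Clopper-Pearson) 95% intervals and cover counting error only, and PCR copies of the same molecule were not told apart. As the libraries were made from bulk exosomes, more exosomes of a cell type cannot be told apart from more miRNA per exosome. Levels of different miRNAs are shares of reads, not of molecules.

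The cluster was a small part of the miRNA reads in SI-Exos and a far smaller one in serum exosomes. It took 769 reads in 3m-SI-Exos (3624 CPM, 3372 to 3889), 135 reads in 18m-SI-Exos (1892 CPM, 1587 to 2239), 27 reads in 3m-serum-exos (32.5 CPM, 21.4 to 47.2) and 38 reads in 18m-serum-exos (48.8 CPM, 34.6 to 67.0). Both SI-Exos libraries thus stood well above both serum libraries, and within SI-Exos the young library stood above the old one.

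miR-183-5p, encoded by the most upstream hairpin, had 313 reads in 3m-SI-Exos, 49 in 18m-SI-Exos, 27 in 3m-serum-exos and 33 in 18m-serum-exos. Its levels were 1475, 687, 32.5 and 42.4 CPM, and it was the only member found in all 4 libraries. Among the miRNAs detected it ranked 52 of 326 in 3m-SI-Exos and 72 of 258 in 18m-SI-Exos, but 158 of 486 and 150 of 496 in the serum libraries. miR-96-5p, the member whose seed is known from inherited hearing loss, had 162 reads in 3m-SI-Exos, 55 in 18m-SI-Exos, 0 in 3m-serum-exos and 2 in 18m-serum-exos. Its levels of 763 and 771 CPM in the young and old SI-Exos libraries were nearly equal, and its rank was 69 in both. miR-182-5p, from the hairpin farthest downstream, had 283 reads in 3m-SI-Exos, 31 in 18m-SI-Exos, 0 in 3m-serum-exos and 3 in 18m-serum-exos. Its level was 1334 CPM in the young SI-Exos library, where it ranked 57, and 434 CPM in the old one, where it ranked 90. miR-182-3p, the other arm of that hairpin, had 11 reads (51.8 CPM) in 3m-SI-Exos and 0 in 18m-SI-Exos, where a count of 0 has an exact upper limit of 51.7 CPM.

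**Figure D1:**
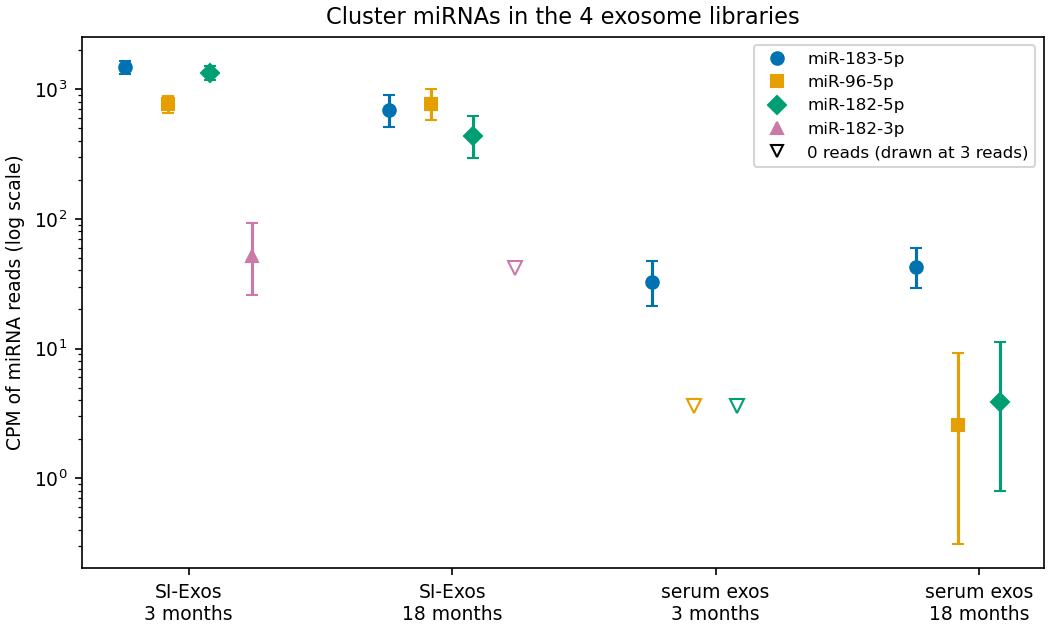
Level of each cluster member (vertical axis, CPM of miRNA reads on a log scale) in the 4 libraries, with exact 95% intervals that cover counting error only. Open triangles are members listed with 0 reads, drawn at the level of 3 reads. In SI-Exos the 5p members lie between 434 and 1475 CPM, and in serum exosomes miR-183-5p, at 32.5 and 42.4 CPM, lies far above the other members.

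The order of the members differed between the young and old SI-Exos libraries. At 3 months miR-183-5p (1316 to 1648 CPM) and miR-182-5p (1183 to 1498 CPM) were highest, with overlapping intervals, and miR-96-5p (650 to 890 CPM) lay below both. At 18 months miR-96-5p (581 to 1003 CPM) had the most reads, but its interval overlapped those of miR-183-5p (508 to 908 CPM) and, just, of miR-182-5p (295 to 617 CPM).

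Whether the content of intestinal exosomes differs between young and old mice was asked by comparing 3m-SI-Exos with 18m-SI-Exos. The ratio of the young to the old library was 3.07 (2.11 to 4.60) for miR-182-5p and 2.15 (1.59 to 2.97) for miR-183-5p, whereas miR-96-5p had a ratio of 0.990 (0.725 to 1.37). Calls of higher or lower were limited to measured miRNAs, those reaching 10 reads in either library, and required a difference of 2-fold or more (any difference where the count in the other library was 0) and an interval excluding 1. By this rule 2 of the 4 members were called higher at 3 months and 0 lower. Over the whole table, 32.7% of the 214 measured miRNAs were called higher and 29.4% lower, so calls in this pair of libraries were common. miR-182-3p was not called, since 11 against 0 reads gave an interval from 0.844 upwards, and an equal level would have given 3.70 reads at 18 months. Summed over the 4 members, the cluster was 1.92-fold higher at 3 months (1.59 to 2.32), just under the threshold of 2.

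The median of all measured miRNAs was a log2 ratio of 0.45, a 1.37-fold higher level at 3 months. Against this median, the log2 ratio of miR-182-5p was higher by 1.17 and that of miR-183-5p by 0.65, and that of miR-96-5p was lower, with a difference of -0.47. Of the measured miRNAs, 18.2% had a higher ratio than miR-182-3p (with 0.5 counts added), 31.8% a higher ratio than miR-182-5p, 40.7% a higher ratio than miR-183-5p and 57.9% a higher ratio than miR-96-5p. The 5p members thus stood within the middle of the distribution rather than at its ends.

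**Figure D2:**
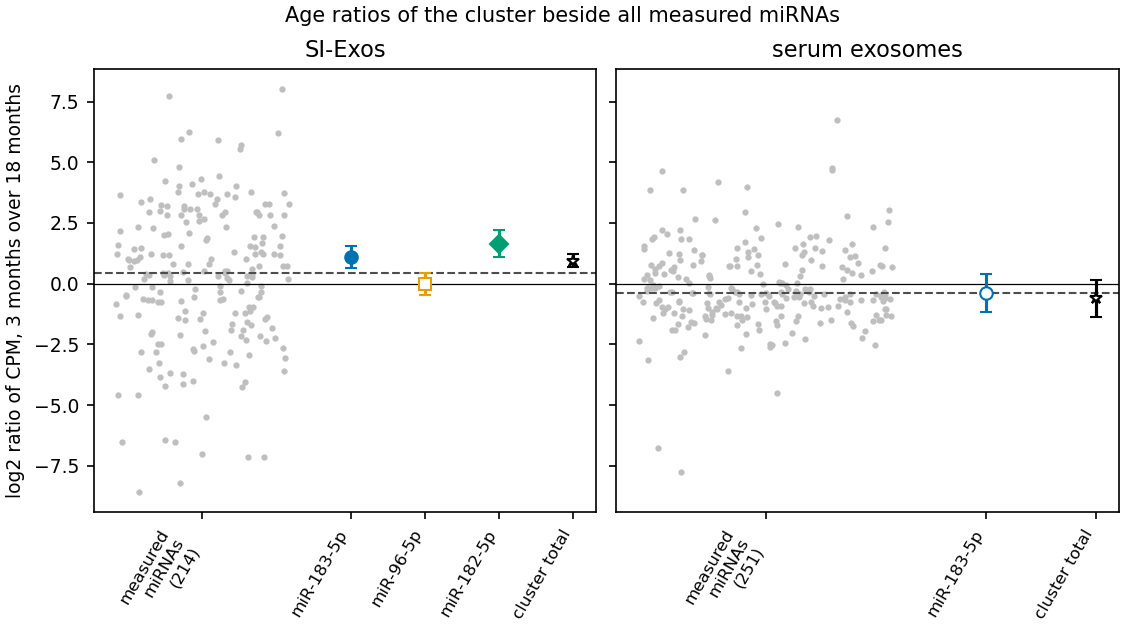
Log2 ratio of CPM at 3 months over 18 months (vertical axis) for all measured miRNAs (grey points, spread sideways for display) and for cluster members with their exact 95% intervals, in SI-Exos and in serum exosomes. Filled symbols were called, open ones were not, and dashed lines are the medians of all measured miRNAs (0.45 and -0.38). miR-182-5p and miR-183-5p lie above the SI-Exos median and miR-96-5p below it, and miR-182-3p (0 reads at 18 months) is not drawn.

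The size of these ratios depended on how the 2 SI-Exos libraries were scaled. The authors' RPM, reads per 1000000 of a larger library total, gave ratios of 8.52 for miR-182-5p, 5.96 for miR-183-5p and 2.75 (2.01 to 3.81) for miR-96-5p, and the cluster was then 5.32-fold higher at 3 months (4.42 to 6.43). With RPM 61.2% of the measured miRNAs were called higher at 3 months, and calls over the table went from 70 higher and 63 lower by CPM to 131 and 31 by RPM and 100 and 50 with DESeq2 size factors. miRNA reads made up 1.14% of the authors' total in 3m-SI-Exos and 0.411% in 18m-SI-Exos. With totals that left out the 5 most abundant miRNAs, miR-183-5p had a ratio of 1.94 and was not called, while miR-182-5p kept its call with 2.77. With known miRNAs alone in the totals, miR-183-5p was again not called (1.97) and miR-182-5p was (2.81). miR-96-5p changed direction with the scaling, from 0.892 without the 5 most abundant miRNAs to 1.04 with TMM factors and 1.42 with DESeq2 size factors.

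**Figure D3:**
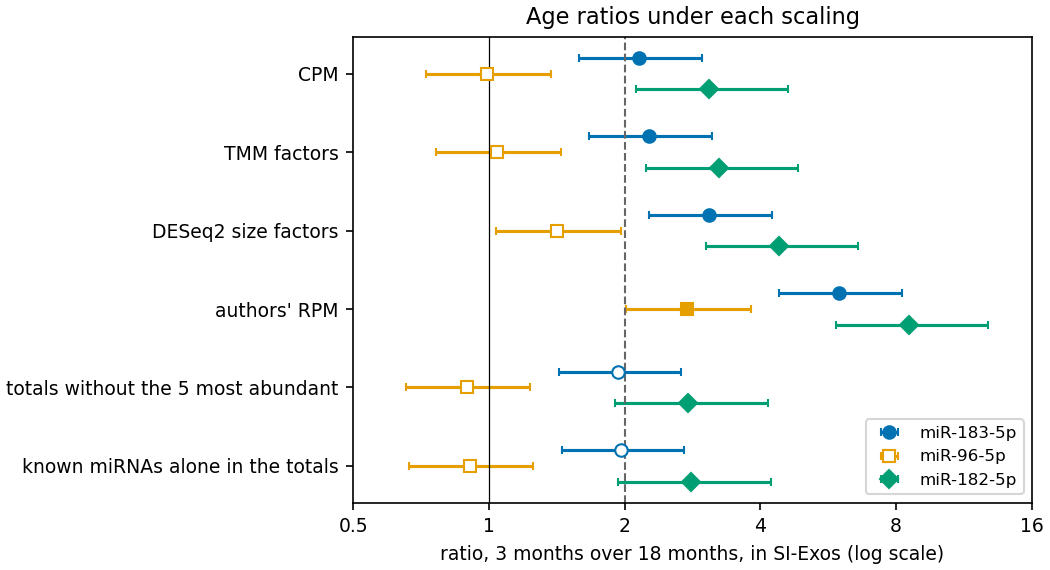
Ratio of 3m-SI-Exos to 18m-SI-Exos (horizontal axis, log scale) for the 5p members under CPM and the alternative scalings, with exact 95% intervals. Filled symbols were called (at least 2-fold, dashed line, with an interval that leaves out 1). The order miR-182-5p, miR-183-5p, miR-96-5p is the same under every scaling by construction, while the ratio of miR-96-5p runs from 0.892 to 2.75.

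Ratios between members inside a library do not depend on the library total, and those with miR-96-5p differed between the young and old SI-Exos libraries. For each read of miR-96-5p there were 1.75 reads of miR-182-5p at 3 months and 0.564 at 18 months, a 3.10-fold difference (exact conditional interval 1.87 to 5.19). For each read of miR-96-5p there were 1.93 reads of miR-183-5p at 3 months and 0.891 at 18 months, a 2.17-fold difference (1.38 to 3.41). Between miR-182-5p and miR-183-5p the read ratio was 0.904 at 3 months and 0.633 at 18 months, and the interval of this 1.43-fold difference included 1 (0.865 to 2.39). These are all 3 pairs of 5p members, and the pairs with miR-96-5p were added after the values had been seen. As shares of the cluster's reads in SI-Exos, miR-96-5p took 21.1% at 3 months (18.2 to 24.1%) and 40.7% at 18 months (32.4 to 49.5%), and miR-182-5p took 36.8% (33.4 to 40.3%) and 23.0% (16.2 to 31.0%). The share of miR-183-5p was 40.7% (37.2 to 44.3%) at 3 months and 36.3% (28.2 to 45.0%) at 18 months. The young and old intervals were apart for miR-96-5p and miR-182-5p and overlapped for miR-183-5p.

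**Figure D4:**
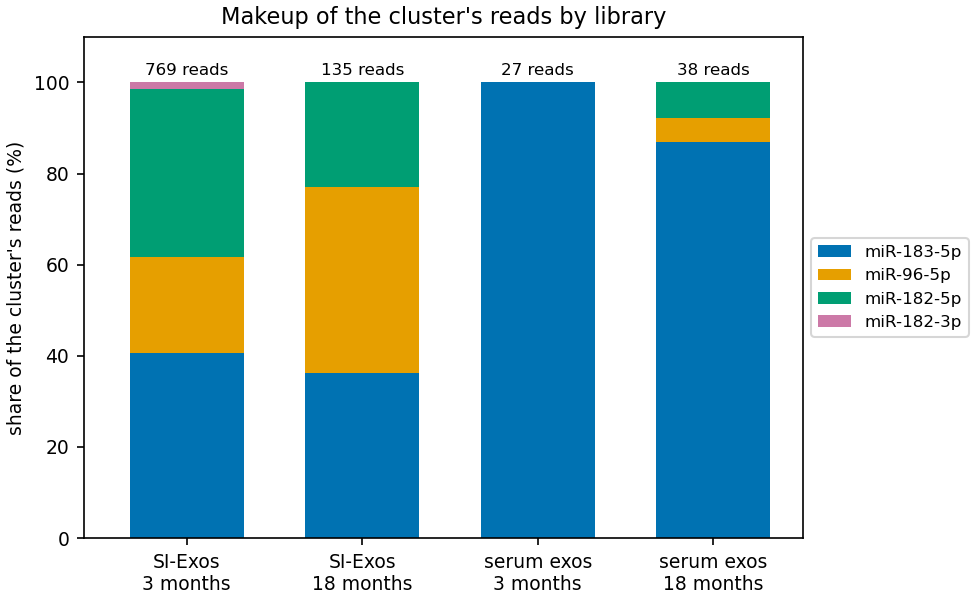
Share of the cluster's reads (vertical axis, percent) taken by each member in the 4 libraries, with the number of cluster reads above each bar. miR-96-5p widens from 21.1% to 40.7% between the young and old SI-Exos libraries, and miR-183-5p takes 100% and 86.8% of the few reads in serum exosomes.

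The 3p arms of Mir182 and Mir96 were rare beside their 5p arms in 3m-SI-Exos and had 0 reads in 18m-SI-Exos. miR-183-3p was listed in neither table. In the Mir182 hairpin shown above, the 3p arm took 11 of 294 reads at 3 months, or 3.74% (1.88 to 6.60%), and 0 of 31 reads at 18 months, which allows a share of up to 9.68% by the limit of 3 reads and 11.2% by the exact interval. miR-96-3p, the other arm of miR-96-5p and no member of the set, took 6 of 168 reads of its hairpin at 3 months, or 3.57% (1.32 to 7.61%), and 0 of 55 reads at 18 months, which allows up to 5.45% by 3 reads and 6.49% by the exact interval. A difference in arm use between the ages was therefore not detectable at this depth.

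In serum exosomes the same comparison of ages rested on few reads. miR-183-5p had 27 reads (32.5 CPM, 21.4 to 47.2) in 3m-serum-exos and 33 reads (42.4 CPM, 29.2 to 59.6) in 18m-serum-exos, a ratio of 0.765 (0.443 to 1.31). This ratio lay at the median of all 251 measured miRNAs (log2 ratio of -0.39 against -0.38), of which 18.3% were called higher at 3 months and 25.9% lower. With totals that left out the 5 most abundant miRNAs the ratio was 1.004, and calls over the table went from 46 higher and 65 lower to 67 and 38. miR-96-5p (0 and 2 reads) and miR-182-5p (0 and 3 reads) were at or under the limit of 3 reads in both libraries and were not measured by the rule. Summed over the listed members, the serum ratio was 0.665 (0.390 to 1.12). None of the 3 listed members was called in serum exosomes, and the interval for miR-183-5p includes changes of more than 2-fold in favour of 18 months.

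SI-Exos and serum exosomes were counted in separate tables, and their levels are set side by side here as CPM of each library. Only miRNAs listed in both tables were compared, which leaves out miR-182-3p. The 5p members together were at 3572 CPM in 3m-SI-Exos and 32.5 CPM in 3m-serum-exos, a 110-fold difference (75.0 to 168), and at 1892 and 48.8 CPM at 18 months, a 38.7-fold difference (26.9 to 57.1). By CPM all 3 were called higher in SI-Exos at both ages. Over the measured miRNAs, 44.3% of 235 were called higher at 3 months and 34.2% of 231 at 18 months. These calls over the table, 104 higher and 66 lower at 3 months and 79 and 72 at 18 months, turned to 79 and 105 and to 63 and 107 with TMM factors, and to 50 and 133 and to 41 and 173 by RPM. miR-183-5p was 45.5-fold higher in SI-Exos at 3 months (30.6 to 70.1) and 16.2-fold higher at 18 months (10.2 to 26.0). Both miR-182-5p and miR-96-5p had 0 reads in 3m-serum-exos. Against 3 reads in that library they were 370-fold and 212-fold higher in 3m-SI-Exos (exact lower limits 299 and 170). At 18 months miR-182-5p was 113-fold higher (35.2 to 576) and miR-96-5p 300-fold (79.2 to 2539), on 3 and 2 serum reads. By the authors' RPM the cluster was 21.3-fold higher in SI-Exos at 3 months (14.5 to 32.6) and 3.00-fold at 18 months (2.08 to 4.42), since miRNA reads made up 5.89% and 5.31% of the authors' totals in the young and old serum libraries. miR-183-5p alone was at 16.8 RPM in 3m-SI-Exos and 1.91 RPM in 3m-serum-exos. At 18 months it was at 2.82 RPM in SI-Exos and 2.25 RPM in serum exosomes, so most of its difference by CPM at that age was absent by RPM.

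The makeup of the cluster also differed between the sources. miR-183-5p took 27 of 27 reads of the 5p members in 3m-serum-exos (87.2 to 100%), against 41.3% of 758 reads in 3m-SI-Exos (37.8 to 44.9%). At 18 months it took 33 of 38 reads in serum exosomes, or 86.8% (71.9 to 95.6%), against 36.3% of 135 reads in SI-Exos (28.2 to 45.0%). If the members had stood in serum exosomes in the ratio seen in SI-Exos of the same age, the reads of miR-183-5p would have come with 24.4 reads of miR-182-5p and 13.97 of miR-96-5p at 3 months, where 0 and 0 were counted, and with 20.9 and 37.0 at 18 months, where 3 and 2 were counted. The 2 SI-Exos libraries and the 2 serum libraries did not overlap in this share at either age.

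The age ratio of miR-183-5p was 2.15 in SI-Exos and 0.765 in serum exosomes, and the first was 2.81-fold the second (exact conditional interval 1.49 to 5.29). For the 5p members together the age ratios were 1.89 and 0.665, which differ 2.84-fold (1.62 to 4.997). Over the 156 miRNAs measured in both sources the same quantity had a median of 1.35, and 36.5% of them lay above miR-183-5p, so the whole tables differed in the same direction. Both intervals cover the counting error of the 4 libraries and no difference between mice.

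Over the 4 libraries, 4 of the 5 miRNAs whose levels were most like the cluster's belonged to the list of epithelial miRNAs described further on, which held 11 of the 155 miRNAs compared (7.10%) and was chosen with earlier results of these data known. Likeness was the Euclidean distance between log2 CPM (0.5 counts added), each miRNA centred on its own mean, among 155 other miRNAs listed in both tables with at least 10 reads in a library of each. The nearest, at a distance of 1.22, was miR-429-3p, which belongs to the miR-200 family of repressors of epithelial-mesenchymal transition. It was followed by miR-574-5p (1.25), miR-200c-3p (1.35), another member of the miR-200 family, and miR-215-5p (1.43) and miR-194-5p (1.77), which are abundant in intestinal epithelium. miR-200c-3p had 758, 42, 26 and 25 reads in 3m-SI-Exos, 18m-SI-Exos, 3m-serum-exos and 18m-serum-exos, and the cluster's 5p members had 758, 135, 27 and 38. miR-574-5p was the rarest of the 5, with 81, 43, 6 and 11 reads. Between the young and old SI-Exos libraries not all 5 went the way of the cluster, since miR-574-5p was at 382 and 603 CPM and miR-215-5p at 13100 and 14225 CPM. With only 4 libraries, 2 of them intestinal, the likeness rests mostly on the step from SI-Exos to serum exosomes. Within the cluster the profile of miR-182-5p was at a distance of 1.22 from miR-96-5p and of 4.50 from miR-183-5p, which alone kept reads in both serum libraries. With 2 counts added in place of 0.5 these distances were 1.155 and 3.06, so they depended on the few serum reads. In SI-Exos the read ratio of miR-182-5p to miR-96-5p differed 3.10-fold between the ages. Its ratio to miR-183-5p differed 1.43-fold, with an interval that included 1.

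**Figure D5:**
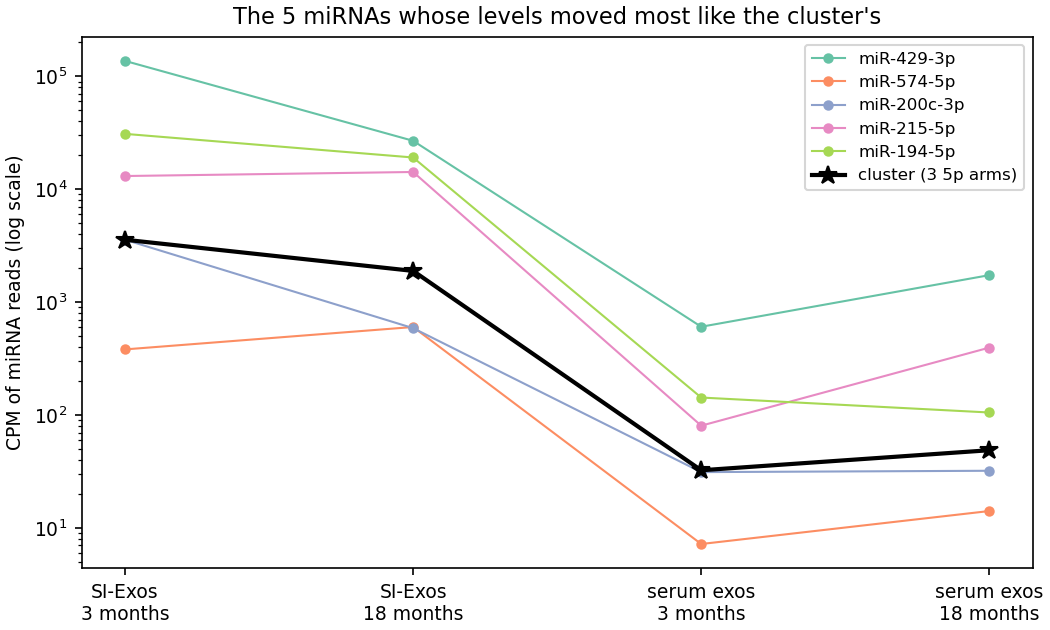
CPM (vertical axis, log scale) of the summed 5p members of the cluster (black) and of the 5 miRNAs with the nearest profile, in the 4 libraries, 1 library per point. The cluster and all 5 drop from SI-Exos to serum exosomes, and between the young and old SI-Exos libraries miR-429-3p and miR-200c-3p drop more than the cluster while miR-574-5p and miR-215-5p are higher in the old library.

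Most of the other miRNAs typical of epithelium were higher in young than in old SI-Exos. Of the 13 miRNAs of the epithelial list, 12 were measured in SI-Exos, of which 8 were called higher and 1 lower at 3 months. Their median log2 ratio was 2.12, against 0.45 over all measured miRNAs, of which 32.7% were called higher and 29.4% lower. Among the epithelial miRNAs, miR-429-3p was at 137050 CPM in 3m-SI-Exos and 26866 CPM in 18m-SI-Exos, and miR-192-5p, typical of gut and liver, at 77176 and 20350 CPM. The summed level of the list was 278100 CPM at 3 months and 87957 CPM at 18 months, a ratio of 3.16. For every 100 reads of this list there were 1.30 reads of the cluster at 3 months and 2.15 at 18 months, so relative to these epithelial miRNAs the cluster was 1.65-fold higher in the old library (1.37 to 1.99), a comparison chosen after the values had been seen. It rested on miR-429-3p, without which there were 2.57 and 3.10 cluster reads per 100, a 1.21-fold difference with an interval that included 1 (0.997 to 1.45). In serum exosomes 2 of 12 measured epithelial miRNAs were called higher at 3 months and 6 lower (median log2 ratio -0.71), against 18.3% higher and 25.9% lower over all measured miRNAs. The summed level of the list in serum exosomes was 17224 CPM at 3 months and 7395 CPM at 18 months. Without miR-192-5p, which made up most of that sum, the direction was the opposite, with 1377 CPM at 3 months and 3263 CPM at 18 months. Of the epithelial list, only miR-205-5p was at 0 reads in 3m-SI-Exos, and it did not reach 10 reads in 18m-SI-Exos. miR-200b-3p, miR-203-3p and miR-802-5p were at 0 reads in 18m-SI-Exos, with log2 ratios (0.5 counts added) of 8.003, 6.241 and 6.215. For miR-200c-3p and miR-429-3p, also of the miR-200 family, the log2 ratios were 2.585 and 2.350.

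miRNAs of sensory and neuroendocrine cells, where the cluster is best known, were mostly rare. Of 10 in the list, 3 were measured in SI-Exos, with 2 called higher at 3 months and 1 lower, and 6 in serum exosomes, with 1 higher and 2 lower (median log2 ratios 1.78 and 0.66). Over all measured miRNAs, 32.7% were called higher and 29.4% lower in SI-Exos, and 18.3% and 25.9% in serum exosomes. miR-204-5p was called lower in both sources (log2 ratios of -1.68 in SI-Exos and -1.75 in serum exosomes). In serum exosomes miR-138-5p was also called lower (-2.13). The list summed to 15998 and 4387 CPM in the young and old SI-Exos libraries and to 1191 and 1597 CPM in the serum libraries. The most abundant was miR-7a-5p, made in endocrine cells, at 14396 and 4176 CPM in the young and old SI-Exos libraries and 907 and 793 CPM in the young and old serum libraries. The related miR-7b-5p had 312 reads in 3m-SI-Exos and 0 in 18m-SI-Exos. miR-124-3p and miR-9-5p, defining miRNAs of neurons, and miR-138-5p were at 0 reads in 18m-SI-Exos, and miR-211-5p was at 0 reads in 3m-SI-Exos. None of these reached 10 reads in either SI-Exos library, so their 0 counts cannot be read as differences between the ages.

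Markers of red blood cells were higher at 18 months in both sources. Of the 5 erythroid miRNAs, 3 were measured in SI-Exos and all 3 were called lower at 3 months, and 4 of 5 were lower in serum exosomes (median log2 ratios -2.80 and -1.68). For these and the lymphoid and myeloid counts, the shares called lower over all measured miRNAs were 29.4% in SI-Exos and 25.9% in serum exosomes. The shares called higher were 32.7% and 18.3%. The summed erythroid level was 6324 and 37882 CPM in the young and old SI-Exos libraries and 219814 and 540212 CPM in the serum libraries, nearly all of it from miR-451a, the main miRNA of red blood cells. miR-486a-5p, also made in red blood cells, had 2 reads in 3m-SI-Exos and 37 in 18m-SI-Exos. miR-144-5p had 0 reads in 3m-SI-Exos and did not reach 10 reads in 18m-SI-Exos. Since CPM adds up to a fixed total, these levels enter every ratio of CPM above. With totals that left out the 5 most abundant miRNAs, the serum ratio of the cluster was 0.872 (0.512 to 1.47) and was not called. The part of the erythroid miRNAs alone in the age ratios of the cluster was not tested. The read ratios between members do not depend on the library total. The lymphoid list, with 0 of 3 measured miRNAs higher and 2 lower at 3 months in SI-Exos and 0 and 1 of 4 in serum exosomes, summed to 14716 and 12683 CPM in SI-Exos and 6761 and 9586 CPM in serum exosomes. In it miR-181a-5p was at 14151 and 11394 CPM and miR-150-5p, abundant in mature lymphocytes, at 490 and 1065 CPM in the young and old SI-Exos libraries. miR-155-5p was at 0 reads in 18m-SI-Exos and did not reach 10 reads in 3m-SI-Exos. The myeloid list, with 0 higher and 2 lower in each source (of 3 and 4 measured), summed to 5904 and 3938 CPM in SI-Exos and 9742 and 17365 CPM in serum exosomes. miR-146a-5p was its most abundant member in SI-Exos, with 5843 CPM in the young library and 3504 CPM in the old one. miR-223-3p, the main miRNA of neutrophils, was at 18.8 CPM in 3m-SI-Exos and 266 CPM in 18m-SI-Exos.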

How the data were processed

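Small RNA of exosomes was sequenced in 4 libraries, 1 per source and age, and each column of the 2 tables was matched to its library by source and age. The deposited read counts are the authors' reads per mature miRNA. The deposited RPM are the authors' counts per 1000000 reads of a library total that exceeds the miRNA reads. According to the submitters' processing notes, Bowtie2 2.2.9 and GRCm38 were used. How reads were counted is not stated in them. The paper's methods and the submitters' labels name different library kits and sequencers. The authors' log2 ratios, p-values and FDR between the libraries were not used.

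Counts were scaled to CPM of the miRNA reads. Ratios carry exact conditional binomial 95% intervals, and ratios of read ratios carry exact conditional odds ratio intervals. No p-value was computed, since each condition has 1 library. A count of 0 was set to 3 reads for bounds, and 0.5 counts were added for log2 medians and profiles. The calling rule was tested on simulated data that held counting error only, so the test does not cover differences between mice or libraries. Alternative scalings used edgeR 4.0.16 and DESeq2 1.42.0, for their factors only.

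Named besides the members were the other arms of the hairpins, miRNAs sharing bases 2 to 7 with a member, the 5 nearest profiles and the 2 most abundant of each of 5 lists. Members and lists were chosen with earlier results of these data known. Positions are from GENCODE M21 and RefSeq, both GRCm38. Python 3.11.15, pandas 2.3.3, numpy 2.4.6, scipy 1.17.1, matplotlib 3.10.9 and R 4.3.3 were used.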

Additional observations from a re-analysis of the deposited data

Results flagged for a closer look

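The age ratio of the cluster lay on opposite sides of 1 in the 2 sources, although the serum ratio was not called and its interval included 1 (0.390 to 1.12). For the 5p members together it was 1.89 in SI-Exos and 0.665 in serum exosomes, and the first ratio was 2.84-fold the second. For miR-183-5p alone the first was 2.81-fold the second. The median over all measured miRNAs was also above 1 in SI-Exos (1.37) and below 1 in serum exosomes (0.768), and over the 156 miRNAs measured in both the SI-Exos ratio was at the median 1.35-fold the serum ratio, with 36.5% above the cluster. With 1 library per condition, whether the sources differ in their response to age was not tested, and with totals that left out the 5 most abundant miRNAs the serum ratio of miR-183-5p was 1.004.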

How the results depend on the processing

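The cluster's ratio of 3m-SI-Exos to 18m-SI-Exos stayed above 1 under all alternatives run, and was called with TMM factors (2.02), DESeq2 size factors (2.74), the authors' RPM (5.32) and a threshold of 1.5 (1.92). It was not called with the other alternatives. The ratio of miR-96-5p in SI-Exos changed direction with TMM factors (1.04), DESeq2 size factors (1.42) and RPM (2.75), and that of miR-183-5p in serum exosomes with totals without the 5 most abundant miRNAs (1.004). The ratio of miR-182-5p to miR-183-5p in SI-Exos was called in neither direction, but the interval left out 1 with all other cluster reads as the denominator (1.95), with miR-96-5p as the denominator (3.10), and for miR-183-5p over miR-96-5p (2.17), of which the last 2 were chosen after seeing the data. The SI-Exos over serum ratio of the summed cluster kept its call under all alternatives run. Over the scalings it ran from 21.3 to 112 at 3 months and from 3.00 to 43.0 at 18 months. Without miR-183-5p it was 582 at 3 months, against 3 reads (exact lower limit 471). By RPM miR-183-5p alone was at 2.82 in 18m-SI-Exos and 2.25 in 18m-serum-exos. Relative to CPM, log2 ratios in SI-Exos shift by 0.07 with TMM, 0.52 with DESeq2, 1.47 with RPM, -0.15 without the 5 most abundant and -0.13 with known miRNAs alone in the totals. Calls over all measured miRNAs of SI-Exos were 70 higher and 63 lower by CPM, 100 and 50 with DESeq2 factors and 131 and 31 with RPM. The age ratio of miR-182-5p to miR-183-5p in serum exosomes was not computed because miR-182-5p had 0 reads at 3 months and 3 at 18 months. The serum ratio without miR-183-5p was not computed because at most 5 reads were left. No paired analysis was possible because each condition has 1 library. A count of 0 allows the most in 18m-SI-Exos, where 3 reads are 42.0 CPM, against 14.1 CPM in 3m-SI-Exos and 3.61 and 3.85 CPM in the serum libraries. The serum ratios rest on 27 and 38 cluster reads.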
